A study of Mus musculus with 12 samples.

Results

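Macrophages grown from the bone marrow of mice labelled MGMT Knockout (KO) were compared with macrophages labelled Wild-type (WTfl/fl), here WT, all of them after 24 h with DMXAA, an agonist of the innate immune adaptor STING. The comparison took 3 KO and 3 WT libraries out of the 12 RNA-seq libraries of the series, and every gene whose normalized counts over those 6 libraries averaged 10 or more, which kept 12499 of the 15394 genes listed. Just below that minimum stood Myl4 (9.985), Ccdc92 (9.989) and Gspt2 (9.992), and just above it Snord104 (10.003), Exd1 (10.03) and Btnl6 (10.056). The series text gives the DMXAA dose as 10 mg/ml, and whether milligrams or micrograms were meant was not settled here. The other 6 libraries, 3 of each genotype in the vehicle DMSO, were used only to set the genotype difference without DMXAA beside the one with it. All libraries carry the same batch label. The labels give no Cre driver or promoter, and no age, sex or strain. They do not say whether the 3 libraries of a group came from separate mice, so p-values measure only the spread between these libraries, which may be technical.

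MGMT is a DNA repair protein that takes alkyl groups off guanine and is used up in doing so. STING, on the membrane of the endoplasmic reticulum, is normally switched on by a cyclic dinucleotide that cGAS makes on DNA in the cytosol, and DMXAA binds mouse STING directly. Active STING recruits the kinase TBK1 and the transcription factor IRF3, and macrophages then make type I interferon, chemokines and a large set of interferon-stimulated genes. All 6 libraries come from cells given DMXAA, so the comparison asks how the 2 genotypes differ once the STING agonist is present.

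Levels are the authors' normalized counts, and a difference is KO minus WT on the log2 scale of the normalized count plus 1, with its standard error (SE) and an adjusted p from limma over all genes (n = 3 libraries in each group). A gene is called where that adjusted p is below 0.05. Mgmt (chromosome 7, 136894614 to 137130266, mm10) was lower in the KO libraries but was not absent. Its normalized counts were 48.1, 59.4 and 32.8 in KO and 111, 83.2 and 105 in WT, and the groups did not overlap (log2 difference -1.11, SE 0.247, adjusted p = 0.00905). Counts per gene do not show in which exons the reads of the KO libraries lie. Lyz2, the lysozyme gene of macrophages and among their most abundant transcripts, stood at 197382, 200852 and 197111 in KO and 362810.4, 371031 and 354484 in WT (log2 difference -0.87, SE 0.0314, adjusted p = 1.46e-07). Lyz1, a close paralogue of Lyz2 whose reads the counting could split between the copies, was also lower, at -1.01 on the log2 scale.

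Reads in listed genes, in units of 1e6, numbered 94.1 to 98.1 per library for KO and 85.1 to 92.5 for WT, so every KO library was deeper than every WT library. Psap, the saposin precursor, was the most abundant gene and took 5.87 to 6.19% of the reads in KO and 5.26 to 5.47% in WT. All 8 macrophage markers that were looked up were listed, with summed normalized counts of 1018960 to 1031336 in KO and 1001460 to 1027002 in WT. The part of depth in the differences below was not tested.

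The genotypes differed at many genes, mostly by small amounts. In the test across all genes 2686 genes, or 21.5%, were called. Of these, 1335 were higher in KO (10.7% of genes tested) and 1351 lower (10.8%). The median size of the log2 difference was 0.33 among called genes and 0.13 among all genes, and the 2 groups of libraries did not overlap at 4705 genes (37.6%). Differences of at least 2-fold, at 2.67% of genes, were mostly decreases, with 235 genes lower (1.88%) and 99 higher (0.792%). The split of the calls depended on the scaling, since giving all libraries the same total made it 939 higher and 1799 lower while moving the median of all genes only from 0.00 to -0.05.

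**Figure D1:**
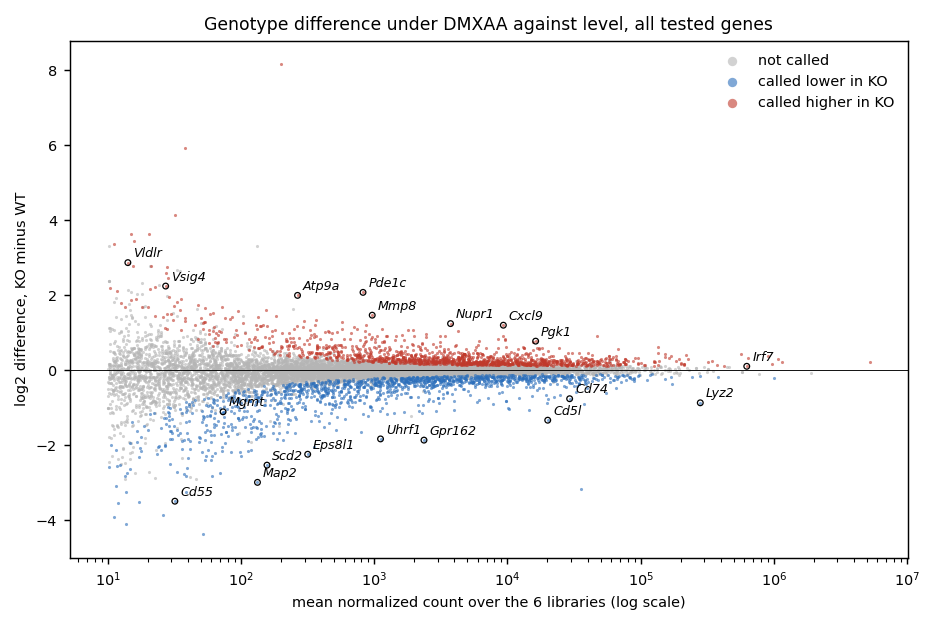
Log2 difference of KO minus WT under DMXAA (vertical axis) against the mean normalized count over the 6 libraries (horizontal axis, log scale) for the 12499 genes tested, with called genes in colour and 19 genes ringed and named. Large decreases outnumber large increases, and Lyz2 and Cd74 are decreases at high counts.

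Genes of cell division were lower in KO. Of 78 tested genes of mitosis and the spindle 66 were lower in KO and 1 was higher, with a median log2 difference of -0.91 against 0.00 for all genes, and 37 of them were lower by at least 2-fold. Of 50 genes of DNA replication and S phase 31 were lower and 2 higher (median -0.57). In bulk RNA, fewer cells in division and less of these transcripts per cell cannot be told apart. Mki67, the Ki-67 proliferation antigen, had normalized counts of 161, 180.1 and 142 in KO and 317, 315 and 367 in WT (log2 difference -1.05, SE 0.128, adjusted p = 2.46e-04). Ccnb2, a cyclin of mitotic entry, was among the 3 lowest members of its list, at 9.43, 3.89 and 6.95 in KO and 65.5, 67.5 and 76.7 in WT (log2 difference -3.26, SE 0.371, adjusted p = 1.58e-04). Every KO library was below every WT library for both genes.

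Promoters of the mitosis list often carry a CCAAT box, bound by NF-Y, and the letters TTTGAA of the cell cycle homology region, bound by repressor complexes in resting cells. The 250 bases before the start of Cdk1, which encodes the mitotic kinase, and of Ccnb2 are given because genes of their list moved together; capitals mark CCAAT and TTTGAA on either strand (RefSeq, GRCm38.p6).
Cdk1 (chr10:69352913-69353162, minus strand): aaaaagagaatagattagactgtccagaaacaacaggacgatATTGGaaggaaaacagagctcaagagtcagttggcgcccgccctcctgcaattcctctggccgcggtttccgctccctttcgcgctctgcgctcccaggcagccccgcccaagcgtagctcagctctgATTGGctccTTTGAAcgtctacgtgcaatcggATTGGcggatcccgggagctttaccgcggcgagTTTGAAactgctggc
Ccnb2 (chr9:70421555-70421804, minus strand): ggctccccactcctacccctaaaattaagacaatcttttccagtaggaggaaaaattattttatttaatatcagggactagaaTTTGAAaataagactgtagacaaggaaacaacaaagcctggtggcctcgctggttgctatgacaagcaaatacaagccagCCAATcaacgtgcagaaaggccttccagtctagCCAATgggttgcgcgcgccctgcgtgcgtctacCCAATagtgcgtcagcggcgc

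CCAAT was found 3 times in each of the 2 windows, and TTTGAA 2 times in that of Cdk1 and 1 time in that of Ccnb2. Over windows from 250 bases before to 50 after a start, with both strands searched and overlapping matches counted, 72.1% of the windows of tested mitosis genes held CCAAT and 63.2% held TTTGAA. Among all 32851 windows the shares were 37.4% and 17.9%. Windows of all tested genes had 38.2% and 12.3%, and windows of genes called lower 40.8% and 15.1%. Cdk1 itself was at 329, 362 and 358 in KO and 560.3, 571 and 431 in WT (log2 difference -0.56, SE 0.118, adjusted p = 0.00656), a smaller difference than that of Ccnb2, with no overlap between the groups.

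Among replication genes, Uhrf1, which keeps DNA methylation in place behind the fork, had 428, 654 and 409 in KO and 1692, 1773 and 1736 in WT (log2 difference -1.83, SE 0.147, adjusted p = 1.66e-05). The claspin gene Clspn (-1.88), the cell cycle repressor E2f7 (-2.04), the DNA polymerase subunit Pole (-1.79) and the ribonucleotide reductase subunit Rrm2 (-1.75) were lower by more than 3-fold. Among the exceptions was Pcna, the sliding clamp, higher in KO by 0.30. Cdc25b, a phosphatase that activates mitotic cyclin kinases, was the single mitosis gene called higher (0.48).

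DNA repair genes were taken in 2 lists. Of 28 tested genes of alkylation damage and base excision repair 3 were lower, or 10.7% against 10.8% of all genes, and none was higher. The lower ones were Mgmt itself and the glycosylase genes Neil3 (-2.49) and Ung (-1.47). Other genes that handle alkylated bases were not called, with log2 differences of -0.03 for the glycosylase gene Mpg, -0.17 for Alkbh2 and -0.09 for Alkbh3. Of 68 genes of mismatch, excision and double-strand break repair 18 were lower and 2 higher. The lowest 3 were Xrcc5, which encodes a subunit of the Ku end-joining protein (-1.88), Rad51ap1 (-1.82) and the checkpoint kinase gene Chek1 (-1.81). The count of lower genes fell to 11, 10 and 11 when WT library 1, WT library 3 or KO library 1 was left out. Xrcc5 had 28.3, 8.76 and 17.9 in KO and 49.9, 67.5 and 76.7 in WT, so each KO library lay below each WT library. Chek1 was no longer called when any of the WT libraries was left out.

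**Figure D2:**
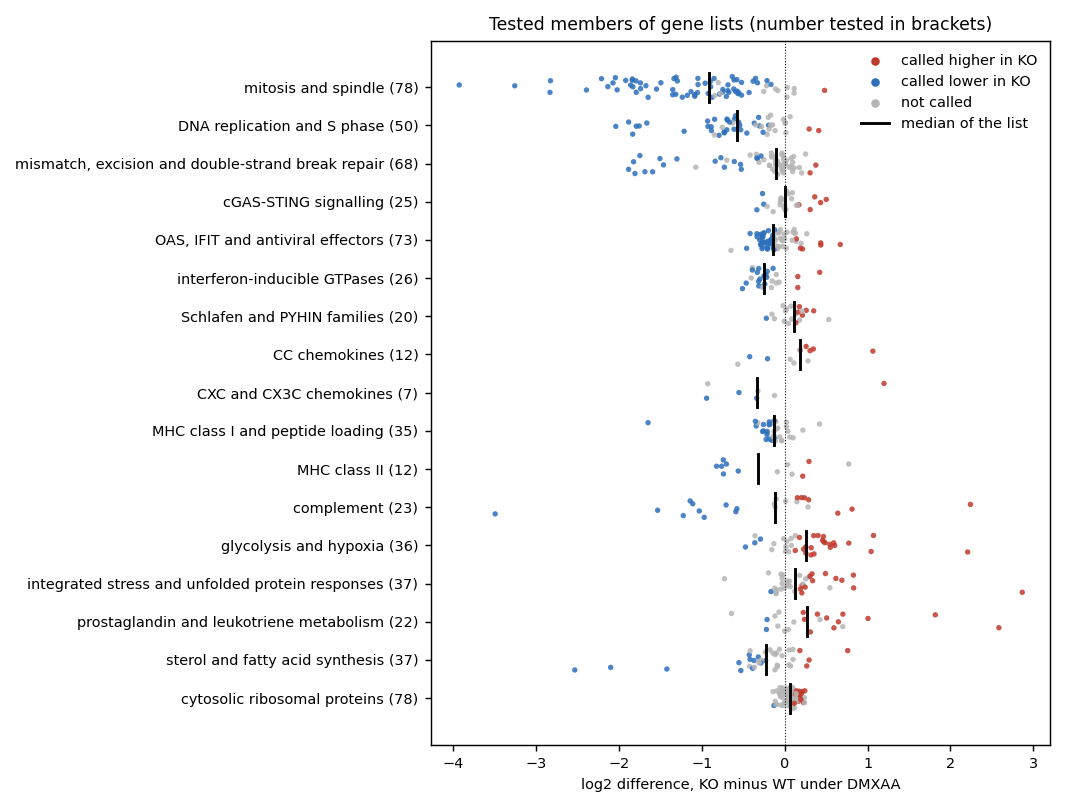
Log2 difference of KO minus WT under DMXAA for every tested member of 17 gene lists, with members called higher in red, members called lower in blue and others in grey, and a black bar at the median of the list. Mitosis and S phase genes lie mostly left of 0, and glycolysis and hypoxia genes mostly right of 0.

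p53 targets were lower more often than higher, 15 of 37 against 1, with a median of -0.13. Ckap2, a spindle-associated gene that is also on the mitosis list, was lowest (-1.79), then Psrc1 (-1.56) and Phlda3 (-1.34). Cdkn1a, which encodes the cyclin kinase inhibitor p21, was lower by less, at 11036, 12261 and 11650.2 in KO and 15603, 16293 and 15447 in WT (log2 difference -0.44, SE 0.0465, adjusted p = 9.56e-05). Gadd45g was the member called higher (0.43). Leaving out WT library 1, WT library 3 or KO library 3 ended the call of Ckap2.

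Sting1 itself was not called, while members of the list around it were called in both directions. Of 25 tested genes of cGAS-STING signalling 5 were higher and 3 lower, none by 2-fold (median 0.01). These counts were 20% and 12% of the list, against 10.7% and 10.8% of all genes. Sting1 had 8822, 8531 and 8168 in KO and 9047, 8509 and 8761 in WT and was not called (log2 difference -0.04, SE 0.0450, adjusted p = 0.544). Its upstream enzyme gene Cgas (0.14), Tbk1 (0.00) and Irf3 (-0.01) were not called either. The regulators Nlrc3 (0.50), Dtx4 (0.31) and Mavs (0.17), the dinucleotide hydrolase gene Enpp1 (0.43) and the channel subunit Lrrc8a (0.36) were higher. Usp18 (-0.34), Ifi35 (-0.27) and the kinase gene Ikbke (-0.25) were lower. The count of higher genes was 3 with the same total, and 3 without WT library 2 or without KO library 3. Leaving out WT library 2 or KO library 3 ended the call of Mavs, and leaving out any library other than KO library 2 ended that of Enpp1.

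Receptors and signal carriers of interferon were looked at next. Of 5 tested interferon receptor genes Ifngr1, for the interferon gamma receptor, was higher (0.40), and Ifnar1 (0.03) and Ifnar2 (0.08) were not called. Stat2 (-0.10, called lower under 3 of 17 alternatives) and Irf9 (-0.03), parts of the type I interferon transcription complex, were not called. The feedback inhibitors went both ways, Socs3 up by 0.64 and Socs1 lower (-0.52). Socs1 was no longer called without WT library 3. Irf7, which amplifies interferon production, had 634879.6, 664400.01 and 647315 in KO and 597829.6, 614517 and 600716 in WT, a difference of 0.10 whose call was lost under 10 of 17 alternatives, among them leaving out any library other than KO library 1.

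Antiviral effectors were lower in KO by small amounts. Of 73 tested genes of the OAS, IFIT and related families 37 were lower and 6 higher, with a median of -0.14. Isg15, a ubiquitin-like modifier, was the lowest at 22808, 23839.6 and 23506 in KO and 32119, 31280.1 and 33043 in WT (log2 difference -0.46, SE 0.0370, adjusted p = 1.69e-05). The nuclease gene Isg20 (-0.42) and Usp18, which removes ISG15 from proteins, followed. The 3 highest were membrane proteins that restrict virus entry, Ifitm1 (0.67), Ifitm2 (0.44) and Ifitm6 (0.44). Ifitm1 stood at 581, 693 and 587 in KO and 377, 389 and 397 in WT. With the spread estimated over all 12 libraries, 20 genes were called lower instead of 37.

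The 250 bases before the start of Isg15 and of Cxcl10 are given because both are interferon-stimulated genes that were lower in KO; capitals mark GAAANNGAAA, the core letters of the interferon-stimulated response element, on either strand (RefSeq, GRCm38.p6).
Isg15 (chr4:156200819-156201068, minus strand): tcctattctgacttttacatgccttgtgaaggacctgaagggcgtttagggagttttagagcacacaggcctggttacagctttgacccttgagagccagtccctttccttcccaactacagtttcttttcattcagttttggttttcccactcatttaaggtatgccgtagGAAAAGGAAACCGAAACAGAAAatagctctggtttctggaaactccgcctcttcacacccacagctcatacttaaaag
Cxcl10 (chr5:92348890-92349139, minus strand): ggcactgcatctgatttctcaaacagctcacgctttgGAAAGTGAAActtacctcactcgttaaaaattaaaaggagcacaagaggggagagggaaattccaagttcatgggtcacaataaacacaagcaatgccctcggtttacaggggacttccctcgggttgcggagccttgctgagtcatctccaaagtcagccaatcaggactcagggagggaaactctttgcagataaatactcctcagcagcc

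Isg15 held 3 matches in a row, each overlapping the next, and Cxcl10 held 1. Of the windows of tested antiviral effector genes 46.6% held the motif, as did 75% of those of the interferon-inducible GTPases, against 3.44% of all windows. The share was 5.57% among windows of genes called lower and 3.43% among those of all tested genes.

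The interferon-inducible GTPases, which attack the vacuoles of intracellular microbes, were lower at 15 of 26 tested genes and higher at 3 (median -0.24). Gbp10 (-0.51) and Gbp6 (-0.46) were the lowest named members. Some Gbp genes are close copies, so reads could be split between them. Gbp8 was the highest (0.42). The count of lower genes was 7 with the spread estimated over all 12 libraries, and that of higher genes was 1 with the same total or without WT library 2, WT library 3, KO library 1 or KO library 3. The Schlafen and PYHIN families, the second of which holds DNA sensors, went the other way, with 6 of 20 higher and 1 lower (median 0.11). Ifi206 (0.35), Ifi207 (0.26) and Slfn2 (0.21) were the highest of those called, and Aim2, the DNA sensor of an inflammasome, was lower (-0.22). The call of Aim2 was lost when WT library 1, WT library 2 or KO library 1 was left out, and the count of higher genes was 3 with the spread over 12 libraries.

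**Figure D3:**
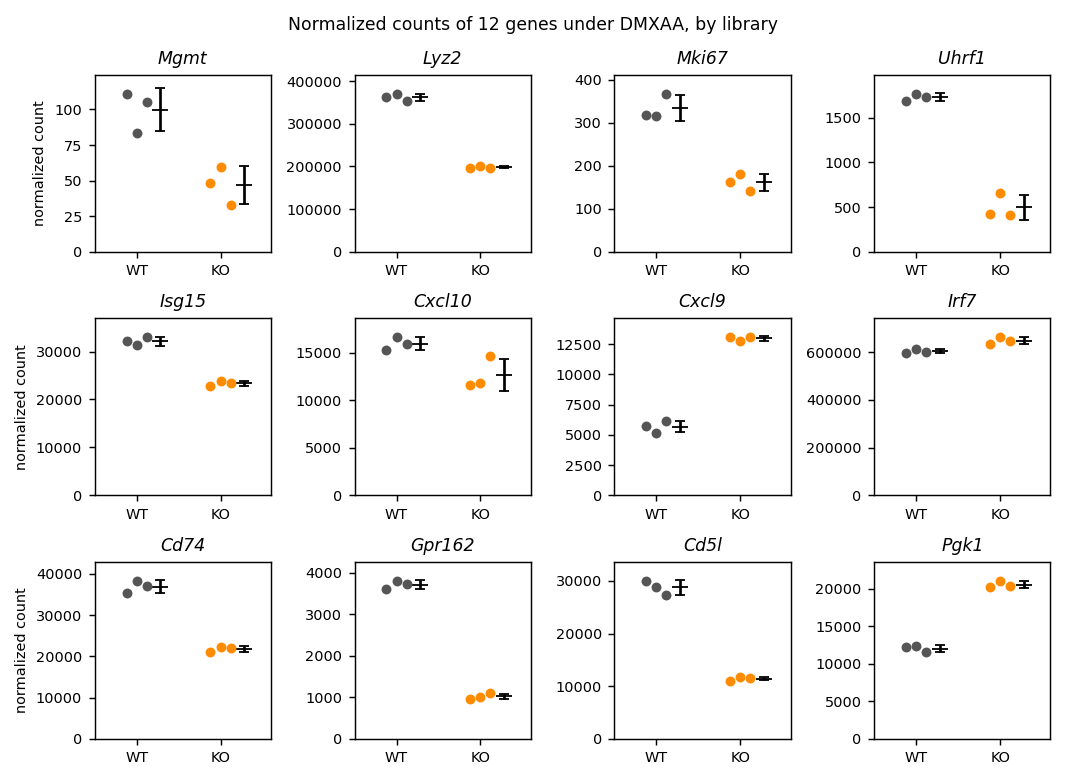
Normalized counts of 12 genes in the 3 WT (grey) and 3 KO (orange) libraries under DMXAA, with the mean and SD of each group in black and each vertical axis starting at 0. Cxcl9 and Pgk1 lie higher in every KO library than in any WT library, and Lyz2, Cd5l and Gpr162 lie lower.

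Chemokines that share a receptor differed in opposite directions. Cxcl9, a ligand of CXCR3 that draws T cells, had 13078, 12759 and 13098 in KO and 5724, 5172 and 6111 in WT, or 2.29 times the WT mean (log2 difference 1.20, SE 0.0575, adjusted p = 1.10e-06). Cxcl10, another ligand of CXCR3, had 11612, 11854 and 14610.1 in KO and 15340.1, 16657 and 15897 in WT (log2 difference -0.34, SE 0.0768, adjusted p = 0.01), and Cxcl11, also a ligand of that receptor, was lower too (-0.55). No KO library overlapped a WT library for any of these. With the spread taken over 12 libraries Cxcl9 (adjusted p = 0.074), Cxcl10 (adjusted p = 0.219) and Cxcl11 (adjusted p = 0.647) were not called. Pf4, a platelet and macrophage chemokine, was lower (-0.94). The call of Cxcl11 was lost without WT library 2 or WT library 3.

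Of 12 tested CC chemokine genes 5 were higher and 2 lower. Ccl22, a ligand of CCR4, was higher (54.7, 78.8 and 102 in KO and 42.6, 39.1 and 27.7 in WT, log2 difference 1.06, SE 0.281, adjusted p = 0.0213), as were Ccl7 (0.35), Ccl5 (0.31), Ccl6 (0.26) and Ccl4 (0.19). Ccl8 (-0.42) and Ccl3 (-0.21) were lower, and Ccl2 (0.11) was not called. The count of higher genes was 2 with the spread over 12 libraries, 2 without KO library 2 and 3 without KO library 3. The count of lower genes was 0 with that spread and 1 without WT library 1, KO library 2 or KO library 3. Calls were lost for Ccl22 without WT library 3, KO library 2 or KO library 3, for Ccl3 without WT library 1, KO library 2 or KO library 3, for Ccl4 without WT library 2 or KO library 2, and for Ccl7 without KO library 2 or KO library 3. Among 21 chemoattractant receptor genes 8 were higher and 7 lower. The leukotriene B4 receptor gene Ltb4r1 (1.82), the fractalkine receptor gene Cx3cr1 (1.20) and Ccr1 (1.07) were the highest. The chemerin receptor gene Cmklr1 (-1.69) and the formyl peptide receptor gene Fpr1 (-1.07) were the lowest. Cx3cr1, a receptor of resident and patrolling cells, had 482, 499 and 531 in KO and 241, 208 and 208 in WT, with no overlap. Fpr1 was no longer called when any library other than KO library 3 was left out, or with edgeR or DESeq2 in place of limma.

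Genes of antigen presentation were lower. Of 12 tested MHC class II genes 6 were lower and 2 higher (median -0.32). Cd74, the invariant chain, had 21006, 22197 and 22073 in KO and 35314, 38384 and 36996 in WT (log2 difference -0.76, SE 0.0416, adjusted p = 1.64e-06). The class II genes H2-Aa (-0.74), H2-Eb1 (-0.74), H2-Ab1 (-0.56) and H2-Oa (-0.82) and their master regulator Ciita (-0.70) were lower as well. The protease gene Ctss (0.22) and the ubiquitin ligase gene Marchf1 (0.29) were higher. The peptide-exchange genes H2-DMa (-0.09) and H2-DMb1 (0.09) were not called. The call of Ciita was lost without WT library 1, WT library 3, KO library 1 or KO library 2, and that of H2-Oa without WT library 2 or KO library 2. Ciita was also not called by DESeq2.

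Of 35 tested genes of MHC class I and peptide loading 16 were lower and none was higher (median -0.13). H2-M2, a non-classical class I gene, was the exception in size (379, 358 and 423 in KO and 1306, 1205 and 1129 in WT, log2 difference -1.65, SE 0.0896, adjusted p = 1.64e-06). Tap2, a chain of the peptide transporter (-0.35), and H2-Q4 (-0.34) came next, while the classical H2-K1 (-0.11, called lower under 7 of 17 alternatives) and H2-D1 (-0.04) and the light chain gene B2m (0.06) were not called. The H2 genes are close copies, so their reads could be divided among them. Without KO library 1, 1 class I gene was called higher.

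Cytokine genes were split, with 7 of 36 higher and 9 lower. The B cell survival factor gene Tnfsf13b was the lowest (231, 235 and 285 in KO and 613, 539 and 493 in WT, log2 difference -1.13, SE 0.119, adjusted p = 9.13e-05), followed by Tnfsf10, which encodes the death ligand TRAIL (-0.67), and Tnfsf15 (-0.64). Inhba, the activin A subunit, was the highest (1.49), ahead of Mif (0.52) and Pdgfb (0.47). Of the cytokines most used as readouts of macrophage activation, Tnf was lower (-0.46) and Il1b (-0.58, called lower under 1 of 17 alternatives) and Il6 (1.02) were not called. Of 28 NF-kappaB subunits and feedback genes 4 were lower and 2 higher (median 0.01), or 21.4% called against 21.5% of all genes. The inhibitor genes Nfkbie (-0.62) and Tnfaip3 (-0.36) were among the lower ones. Among 32 pattern receptor genes 5 were lower and 5 higher, with the Toll-like receptor genes Tlr9 (-0.60) and Tlr2 (-0.59) lower and the beta-glucan receptor gene Clec7a higher (0.54). With the same total in all libraries 8 of these were lower.

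Among inflammasome and cell death genes 12 of 41 were lower and 6 higher. The pyrin gene Mefv (-0.88), Nlrp1a (-0.60) and Nlrc4 (-0.57) were the lowest. Bcl2a1b (0.83), the pore-forming Gsdme (0.60) and Casp4 (0.38) were the highest. Nlrc4 was not called without WT library 2.

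Complement genes were called in both directions. Of 23 tested complement genes 10 were lower and 7 higher. The chains of C1q, C1qa (-1.14), C1qb (-0.59) and C1qc (-0.71), its proteases C1ra (-1.11) and C1s1 (-1.22), and the alternative pathway protein properdin, Cfp (-1.03), were lower in KO. C1qa had 1404, 1443 and 1392 in KO and 3090.3, 3370.2 and 2903 in WT, with no overlap. Cd55 and Cd46, which protect cells from complement, were the lowest (-3.49 and -1.53). Cd55 was at 2.83, 6.81 and 3.97 in KO and 54.1, 71.4 and 52.2 in WT. Vsig4, a receptor for C3 fragments, was highest at 43.4, 29.2 and 57.6 in KO and 6.24, 23.5 and 3.20 in WT, and the integrin chain gene Itgax was also higher (0.64). C3 itself was higher (0.29). The call of C1s1 was lost without WT library 1, that of Cd46 without WT library 2 or WT library 3, and that of Vsig4 when any library other than WT library 2 or KO library 2 was left out.

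Other macrophage functions gave mixed lists. Arg2, which hydrolyses arginine (-1.52), the kynureninase gene Kynu (-0.995), the arginine resynthesis gene Ass1 (-0.83) and Nos2, which makes nitric oxide (-0.70), were lower, in a list of 17 with 5 lower (3 with the spread over 12 libraries) and 3 higher. Nos2 had 869, 982 and 1069 in KO and 1496, 1485 and 1754 in WT. Of 20 alternative activation genes 7 were lower, led by Chil3 (-2.81) and the scavenger receptor gene Marco (-2.19), and 6 were higher, led by the haemoglobin scavenger receptor gene Cd163 (1.68). Of 10 tested neutrophil markers 5 were lower, among them Chil3 and S100a9 (-4.37), and Mmp8 was higher (1.46). Of the 10 markers that define these cells 7 were listed, 5 were tested and 3 were lower, and their summed normalized count was 144 to 149 in KO and 306 to 382 in WT. Mpo, Elane and Retnlg were not listed, and the part of neutrophils in these values was not tested.

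Fcgr3, an activating receptor for IgG, was higher (19558, 19505 and 19392 in KO and 11854, 10965 and 11697 in WT, log2 difference 0.76, SE 0.0406, adjusted p = 1.64e-06). Of 38 adhesion, matrix and protease genes 15 were higher and 7 lower. Mmp8, the collagenase of neutrophils (1.46), the inhibitor Timp1 (1.18) and Plaur, the urokinase receptor gene (1.02), were the highest, and Mmp14 (-1.24), Serpina3g (-1.18) and Icam1 (-0.74) the lowest. The macrophage elastase gene Mmp12 had 12276, 11670.2 and 12205 in KO and 6562, 6464 and 6083 in WT, with each KO library above each WT library. Timp1 was no longer called when any of the KO libraries was left out.

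Genes of glycolysis and the response to low oxygen were higher in KO. Of 36 genes of glycolysis and hypoxia 22 were higher in KO and 3 lower, with a median of 0.25. Pgk1, phosphoglycerate kinase, had 20187, 21089 and 20403 in KO and 12169.8, 12399.9 and 11529 in WT, or 1.71 times the WT mean (log2 difference 0.77, SE 0.0410, adjusted p = 1.64e-06). The hypoxia-inducible genes Egln3 (2.21), Ankrd37 (1.07) and Ndrg1 (1.04) were the highest. Hif1a (0.01) and Vegfa (0.01) were not called. The 3 lower genes were Eno2 (-0.47), Slc16a1 (-0.36) and Hk1 (-0.29), and the count of lower genes was 1 without KO library 1 or without KO library 2. Ankrd37 lost its call when any library other than KO library 3 was left out, Slc16a1 when any library other than WT library 1 was left out, and Eno2 without WT library 1, WT library 2, KO library 1 or KO library 2. Slc16a1 was also not called by edgeR or DESeq2.

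The 250 bases before the start of Pgk1 are shown because it had the smallest p of its list; capitals mark ACGTG, the core of the hypoxia response element, on either strand (RefSeq, GRCm38.p6).
Pgk1 (chrX:106186850-106187099, plus strand): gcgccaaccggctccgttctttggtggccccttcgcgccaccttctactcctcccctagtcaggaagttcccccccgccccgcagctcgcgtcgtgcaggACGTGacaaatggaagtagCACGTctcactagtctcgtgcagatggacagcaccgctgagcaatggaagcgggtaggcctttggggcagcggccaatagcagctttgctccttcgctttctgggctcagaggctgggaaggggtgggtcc

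Pgk1 held 2 matches. The letters were in 57.4% of windows of the tested glycolysis and hypoxia genes, 25.4% of windows of all tested genes and 19.6% of all windows. Among windows of genes called higher the share was 24.1%.

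The integrated stress and unfolded protein responses had 13 of 37 genes higher and 1 lower. The very low density lipoprotein receptor gene Vldlr (2.87), the pseudokinase gene Trib3 (0.83) and Herpud1 (0.83) were the highest. Of the arms of the response, Atf4 (0.21), Ddit3 (0.49), Xbp1 (0.34) and Atf6 (0.30) were higher and Hspa5, the main chaperone of the endoplasmic reticulum, was not called (0.03). Leaving out WT library 2, KO library 2 or KO library 3 ended the call of Vldlr. Prostaglandin and leukotriene genes were higher at 11 of 22 and lower at 2, led by the prostaglandin E2 receptor genes Ptger3 (2.58) and Ptger2 (1.005) and by Ltb4r1. Without WT library 1 the count of higher genes was 7.

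Lipid genes were lower in parts. Of 37 genes of sterol and fatty acid synthesis 12 were lower and 4 higher, with the desaturase genes Scd2 (-2.53) and Fads2 (-2.10) lowest. Scd2 had 42.4, 50.6 and 43.7 in KO and 281, 255 and 267 in WT, with no overlap. Without WT library 2, 7 were called lower, and without KO library 3, 2 were called higher. The sterol-sensing receptor gene Nr1h3, which encodes LXR alpha, was lower (5407, 5713 and 5358 in KO and 10384, 10256 and 9978 in WT, log2 difference -0.89, SE 0.0434, adjusted p = 1.10e-06). Among the targets of LXR, Cd5l had 11074, 11668 and 11462 in KO and 30070.1, 28833 and 27371 in WT (log2 difference -1.33, SE 0.0436, adjusted p = 1.16e-07). Of 31 genes in that list 9 were lower and 7 higher, among the lower Cyp27a1 (-0.84), the efflux pump genes Abca1 (-0.62) and Abcg1 (-0.32), and Apoe (-0.37). The count of higher genes was 4 without WT library 1 or KO library 3, 3 without WT library 2, 4 with the same upper quartile or with no filter on low values, and 3 with the same total.

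Oxidative phosphorylation had 14 of 75 genes lower (18.7%) and 2 higher (2.67%), with 22 lower under the same total. Ribosomal proteins had 17 of 78 higher (21.8%) and 1 lower (1.28%). Over all genes 10.7% were higher and 10.8% lower. The ribosomal count was 10 with the same upper quartile, 5 with the same total and 7 to 10 without WT library 1 or 2 or KO library 1 or 2, so its size rested on those choices. Of 29 heat shock genes 7 were lower and 4 higher, with the inducible chaperone genes Hspa1a (-1.51) and Hspa1b (-1.35), near-identical copies, lowest. Of the heat shock genes 2 were higher with the same total or without KO library 2 or KO library 3.

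Outside the lists, the largest differences were at genes of modest level. Map2, a microtubule-associated protein best known in neurons, was the lowest of the non-overlapping genes whose mean reached 100 (20.7, 32.1 and 35.7 in KO and 221, 254 and 233 in WT). Eps8l1 (-2.24), an actin regulator, Spats2l (-2.15) and the orphan receptor gene Gpr162 (-1.87) were also in the lowest 15. Gpr162 had 952, 1013 and 1091 in KO and 3593, 3807 and 3731 in WT (log2 difference -1.87, SE 0.0634, adjusted p = 1.16e-07). At the other end, Pde1c, a calcium-dependent phosphodiesterase, had 1486, 1221 and 1257 in KO and 245, 259 and 477 in WT and the phospholipid flippase gene Atp9a 396, 404 and 477 in KO and 104, 113 and 101 in WT. The stem cell antigen gene Cd34 (1.45), the stress-induced regulator Nupr1 (1.24), the transcription factor gene Runx3 (1.20) and the scaffold gene Nedd9 (1.32) were in the highest 15.

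A pair of genes present in KO under DMXAA were nearly absent in WT under DMXAA. The transcribed pseudogene 9030619P08Rik (chromosome 15, 75427606 to 75431829) had 1228 reads over the 3 KO libraries and 1 over the 3 WT libraries, a ratio of 1159.7 with an exact 95% counting interval of 208 to 45842. The zinc finger gene Zfp618 had 237 reads over the KO libraries and none over the WT libraries, so it was at least 74.6-fold higher against a floor of 3 reads over the group. The KO minus WT difference of Zfp618 was higher under DMXAA than under DMSO by 5.92 on the log2 scale, a value that depends on the pseudocount. 9030619P08Rik was not among the genes listed for the DMSO libraries. Both genes were named after their values were seen, and the intervals cover counting error only.

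Genes near Mgmt on chromosome 7 were also counted. Within 5 Mb of Mgmt 73 genes were tested, and 19 were higher and 2 lower, or 28.8% called. Of all genes 21.5% were called, 10.7% higher and 10.8% lower. The higher genes within 5 Mb included Ifitm1, Ifitm2, Ifitm3 and Irf7. Ifitm3 was not called without WT library 1, WT library 3, KO library 1 or KO library 2. Within 1 Mb, 2 genes were tested and none was called. In DMSO 6 of 72 genes within 5 Mb were higher and 6 lower, while 7.04% of all genes were higher and 9.58% lower. Any tie between these genes and the Mgmt allele was not tested.

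The same genotype contrast in DMSO used other libraries, 3 per genotype, and no sample was shared. Of 1319 genes lower under DMXAA and tested in both, 521 were also lower under DMSO, 25 were higher and 773 were not called. Of 1322 genes higher under DMXAA, 344 were also higher, 78 were lower and 900 were not called. Across the 12263 genes tested in both contrasts the differences correlated (Pearson 0.50, Spearman 0.37), as a description over genes that share libraries. Over all genes tested under DMSO 7.04% were higher in KO and 9.58% lower. The contrasts themselves differed at 1100 genes (8.97%) in an interaction fit over 12 libraries, 686 above 0 (5.59%) and 414 below 0 (3.38%).

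**Figure D4:**
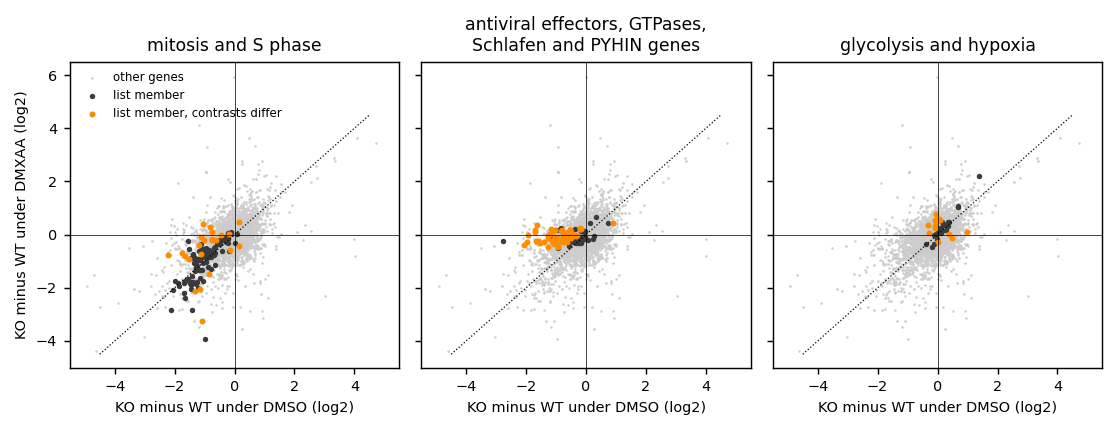
Log2 difference of KO minus WT under DMXAA (vertical) against the same under DMSO (horizontal) for 12263 genes (grey), with members of the named lists in black and those whose contrasts differ in orange, and the dotted line where the 2 are equal. Antiviral genes lie mostly left of the line, with lower values under DMSO than under DMXAA. The contrasts differed upward at 33 of 72 antiviral effectors (1 downward), 9 of 23 GTPases and 18 of 19 Schlafen and PYHIN genes. Mitosis and S phase genes were mostly called lower in both contrasts, at 66 and 31 genes under DMXAA and 69 and 45 under DMSO.

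Antiviral genes were among those that differed between the contrasts. Under DMSO 46 of 72 antiviral effectors were lower in KO, with a median of -0.47, and 33 differed from DMXAA in the upward direction with 1 downward. Of 23 GTPases 9 differed upward and none downward, and of 19 Schlafen and PYHIN genes 18 differed upward and none downward. Irf7 had an interaction of 2.08, SE 0.130, adjusted p = 3.66e-07, its contrast going from -1.98 under DMSO to 0.10 under DMXAA. C3 (1.75), Ifi209 (1.22), Oas3 (0.69) and Tgtp2 (1.44) moved in the same direction. Of 10 CC chemokine genes tested in both, 6 differed upward and 1 downward, and 6 were lower in KO under DMSO. Ccl8 went from -3.07 under DMSO to -0.42 under DMXAA, Ccl7 from -2.11 to 0.35 and Ccl5 from -2.02 to 0.31. Under DMSO the mean normalized counts of Ccl8 were 3.09 in KO and 31.7 in WT, and those of Ccl7 12.3 and 53.3. The DMSO differences of Ccl8 and Ccl7 therefore rest on few reads. For mitosis genes 6 of 78 differed upward and 6 downward, and 69 were lower under DMSO. Of 50 genes of DNA replication and S phase 12 differed upward and none downward, with 45 lower under DMSO and medians of -0.87 there and -0.57 under DMXAA. Pcna went from -0.81 to 0.30. Among genes with a negative interaction, Tlr2 was 0.35 under DMSO and -0.59 under DMXAA, Tlr9 0.47 and -0.60, and Arhgap19, a GTPase-activating protein, -0.17 and -1.06.

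Markers of other cell types were also summed. Of 20 stromal marker genes 9 were tested, 2 were higher and 1 lower. Of the 7 that define these cells 5 were listed, 2 were tested and 1 was higher, with a summed normalized count of 42.4 to 79.4 in KO and 13.7 to 55.1 in WT, and Pdgfra and Lum were not listed. Col1a1 (16.97, 21.4 and 42.7 in KO and 12.5, 0 and 0 in WT) and Sparc (2.78) were called higher, calls that edgeR and DESeq2 did not make. Each was also lost when any of 5 of the 6 libraries was left out (all but WT library 1 for Col1a1 and all but WT library 3 for Sparc). Of 6 B cell markers 3 were listed (9.73 to 38.7 in KO and 23.5 to 52.2 in WT) and of 6 T and NK cell markers 1 was listed (76.4 to 119 in KO and 78.0 to 109 in WT), and none of those tested was called. Of 6 dendritic cell markers 3 were tested and none was called (515 to 627 in KO and 515 to 525 in WT). All 3 endothelial markers were tested, and their sums were 5552 to 5632 in KO and 4804 to 5056 in WT, nearly all of it from Kdr, a receptor gene for vascular endothelial growth factor, which was higher (0.21). Erythroid and mast cell markers summed to at most 11.7 in any library. The part of these cells in the differences was not tested.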

How the data were processed

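The mRNA libraries were strand-specific, per the labels' protocols. Reads were aligned with HISAT2 and counted with featureCounts on mm10, per the submitters' processing notes, and the sources used here give no versions. The deposited values are the authors' normalized counts (signal), scaled within tables of 6 libraries. The authors' deposited comparison tables hold log2 fold changes and p-values, which were not used here for any result. Whole reads were recovered from the steps of the values (100% whole within 0.01). Positions are from GENCODE vM21. The test was limma 3.58.1 with an intensity trend on log2(normalized count + 1), two-sided, 3 KO against 3 WT libraries, for genes averaging 10 or more, adjusted by Benjamini-Hochberg over all genes. SE are from that fit, and fold changes on this scale understate low genes. The interaction was fitted over 12 libraries. edgeR 4.0.16 and DESeq2 1.42.0 (R 4.3.3) on the recovered reads were alternatives, and edgeR called 2652 genes, 1306 higher and 1346 lower. The members and lists were chosen with earlier results of these data known. Genes are named by a rule: Mgmt, Lyz1 and Lyz2, the 15 highest and 15 lowest of the called genes that averaged 100 or more without overlap (leaving out Gm, Rik, pseudogene and identifier-only symbols), the 10 smallest p-values each way, the 3 largest called members of each list each way (all where 8 or fewer were called), and the 10 smallest p-values of the interaction each way. Of the genes outside this rule, 9030619P08Rik, Abca1, Abcg1, Apoe, Atf4, Atf6, C1qa, C1qb, C1qc, Cdk1, Cdkn1a, Ddit3, Ifitm3, Psap, Tnf, Xbp1 and Zfp618, all called, were named after their values were seen. Some genes that meet the rule are not reported here.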

Additional observations from a re-analysis of the deposited data

Results flagged for a closer look

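For the genes below, the KO minus WT difference under DMXAA differed from that under DMSO in the limma interaction fit over 12 libraries. Each value is the first difference minus the second on the log2 scale, and adjusted p-values over all genes ran from 6.22e-09 (C3) to 0.0483 (Ifitm6). Of all genes tested 8.97% were called in this fit. The value of Zfp618 depends on the pseudocount, since its 3 WT libraries under DMXAA held no reads. The values of Ccl8 and Ccl7 rest on low counts under DMSO, with KO means of 3.09 and 12.3. Those of Cd46, Cd55 and Ccnb2 rest on low counts under DMXAA, with KO means of 11.9, 4.54 and 6.76.

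The difference was above 0 for Zfp618 (5.92), Ccl8 (2.65), Ccl7 (2.46), Ccl5 (2.33), Ccl2 (2.26), Irf7 (2.08), Ifi206 (1.99), C3 (1.75), Mmp8 (1.496), Pde1c (1.47), Ccr1 (1.45), Tgtp2 (1.44), Ms4a6b (1.33), Ifi209 (1.22), Cx3cr1 (1.17) and Pcna (1.11). Values above 0 were also found for Hspa1a (1.10), Nlrc3 (1.09), Hspa1b (1.07), Cd36 (0.95), Gadd45g (0.93), Plaur (0.93), Nupr1 (0.92), Adam8 (0.87), Pgk1 (0.84), Ddit3 (0.84), Gbp6 (0.81), Spp1 (0.79), Gsdme (0.79), Ccl6 (0.74), Usp18 (0.74) and Ptger2 (0.72). It was above 0 as well for Oas3 (0.69), Fcgr3 (0.67), Nedd9 (0.67), Pdgfb (0.62), Ass1 (0.53), B2m (0.52), Mmp12 (0.51), Clec7a (0.50), Isg15 (0.48), Cgas (0.47), Ifi207 (0.47), Stat2 (0.45), Mif (0.45), Cd74 (0.39), Sting1 (0.39) and Slfn2 (0.38). Smaller values above 0 were those of Irf9 (0.33), Cdc25b (0.32), Ctss (0.30) and Psap (0.29).

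The difference was below 0 for Cd46 (-2.64), Cd55 (-2.31), Ccnb2 (-2.17), Marco (-1.87), Psrc1 (-1.63), Scd2 (-1.32), Phlda3 (-1.17), Lacc1 (-1.09), Maged1 (-1.09), Tlr9 (-1.06), Pde4b (-1.02), Ephx1 (-0.999), Arl5c (-0.99), Trib3 (-0.98), Tnfsf13b (-0.97) and Tlr2 (-0.94). Values below 0 were also found for Arhgap19 (-0.89), Nfkbie (-0.89), Cyp27a1 (-0.80), Plxnd1 (-0.78), Tnfaip3 (-0.76), Gpr162 (-0.71), C1qa (-0.60), Tnf (-0.60), C1qc (-0.56), Hpse (-0.52), Icam1 (-0.48), Ifitm6 (-0.48), Cd5l (-0.43), C1qb (-0.42), Vegfa (-0.37) and Cdkn1a (-0.36). It was below 0 as well for Ccl3 (-0.34), Nr1h3 (-0.32), Hk1 (-0.30), Ikbke (-0.30), Tap2 (-0.28) and Kdr (-0.27).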

How the results depend on the processing

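The count of called genes was 2686, and 2005 to 2267 when each library was left out in turn, with 959 to 1116 higher, 1001 to 1158 lower and 285 to 322 changed by at least 2-fold. The count changed by at least 2-fold was 334, and 216 with a minimum mean of 50. The interaction count of 1100 ran from 851 to 1125 in the same way. Giving all libraries the same upper quartile made 43.2% of calls higher, and the same total 34.3%, against 49.7%. Among 202 named genes 130 of the 173 called kept call and direction under every one of the 17 alternatives that tested them, and none reversed. With the spread estimated over 12 libraries, the calls of Ccl5, Ccl8, Cxcl9, Cxcl10, Gbp8, Ifi206, Ifi35, Isg20, Kynu, Nos2, Serpina3g, Socs3, Tgtp2 and Tnfsf15 were lost, and no other alternative ended them.

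Whether the replicate numbers pair the libraries is not settled here. Deviations of same-numbered KO and WT libraries from their group means correlated at 0.04, -0.03 and 0.05. Not every library correlated best with its own number. Deviations from a mean of 3 libraries sum to 0 within a group, so these values cannot exclude pairing. With the replicate block 1235 genes were higher and 1256 lower, 2491 in all, the interaction count was 995, and Il1b was called lower (adjusted p = 0.0483). The block used the numbers in the titles. The DMSO library names carry the numerals II to IV and the DMXAA names I to III. In the interaction fit the block therefore joined DMSO and DMXAA libraries with different numerals.

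Of the 104 counts of higher or lower members of a list, 45 moved by over 1.5 times under at least 1 alternative, 34 of them from a count of 5 or fewer. Genes below a mean of 10 were left out of the test, 2895 of those listed.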
